A study of Mus musculus with 6 samples.

Results

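The genes described here encode the liver enzymes that make foreign and endogenous compounds water soluble or cut them at an ester bond. They are the UDP-glucuronosyltransferases (Ugt), the sulfotransferases (Sult), the carboxylesterases (Ces) and, beside them, the aldehyde oxidases (Aox). All genes of the deposited table whose symbols begin with Ugt1, Ugt2, Ugt3, Sult, Ces or Aox followed by their numbers were taken. This gave 45 of the 14492 genes in the table, made up of 18 Ugt, 8 Sult, 16 Ces and 3 Aox genes. The rule itself uses gene symbols alone.

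The study sequenced polyadenylated RNA from whole livers of male C57BL/6J mice (strain given as C57BL/6 in a second label) that were 8 weeks old when injected through the tail vein and that then ate the high-fat diet D12492 for 2 weeks. By the injection label, 3 of the 6 libraries belong to vehicle and 3 to an adenoviral vector made to raise Chrna4, which encodes a neuronal-type subunit of nicotinic acetylcholine receptors. All 6 libraries share sex, age, diet and injection route, and the protocol text speaks of adenovirus for the mice without naming a group, so whether vehicle mice received a virus without Chrna4 is not stated. Nothing in the sources used here names the promoter of the transgene, and a virus given by vein can reach several cell types. The comparison asks what the Chrna4 virus did to liver gene expression on this diet.

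Glucuronosyltransferases sit in the membrane of the endoplasmic reticulum and move glucuronic acid from UDP-glucuronic acid onto bilirubin, steroids, bile acids and drugs, while sulfotransferases work in the cytosol and move sulfate from the donor PAPS onto phenols, steroids and bile acids. Carboxylesterases split esters, amides and also lipids such as triacylglycerol, mostly in the lumen of the endoplasmic reticulum of hepatocytes. Aldehyde oxidases are cytosolic enzymes that carry a molybdenum cofactor and oxidize aldehydes and nitrogen-containing rings. In mouse the families have expanded into clusters of neighbouring genes that often differ in substrate.

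Each value is the number of reads of a gene for every 1000000 in the library, after its total was scaled, and is called CPM below. They were recovered as whole reads, 14959338 to 22440334 per library. Mouse Chrna4 itself had 1.70, 4.99 and 3.38 CPM in vehicle and 3.70, 2.17 and 3.82 CPM in the other libraries (log2 fold change 0.0069, limma, adjusted p = 0.993), so the transgene did not show in this gene, and the group is called Chrna4-labelled. The sources used here do not say whether reads from the vector would count towards this gene. Vehicle libraries differed more from each other than Chrna4-labelled ones did, with a chi-square per degree of freedom over all genes of 47.5 to 65.7 against 10.3 to 17.7. Every library carries a liver number of its own but no statement that the animals were separate, so p-values measure the spread between these libraries.

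Start regions of 3 genes are shown first because they belong to the neighbours that moved in opposite directions, Ugt1a1 and Ugt1a9, and to Ugt2a3, which had the lowest p of all members. Each is the 250 bases before the start of transcription in RefSeq (GRCm38.p6), written 5′ to 3′ on the strand of the gene. Capitals mark exact matches to GTTAAT, part of the site of the hepatocyte factor HNF1, or to AGGTCA, the core element of nuclear receptors, on either strand.
Ugt1a1 (chr1:88211709-88211958, plus strand): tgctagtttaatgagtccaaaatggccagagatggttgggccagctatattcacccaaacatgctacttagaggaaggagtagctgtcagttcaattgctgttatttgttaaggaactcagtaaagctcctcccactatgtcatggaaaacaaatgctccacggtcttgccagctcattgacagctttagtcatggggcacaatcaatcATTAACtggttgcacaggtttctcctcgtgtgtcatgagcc
Ugt1a9 (chr1:88070529-88070778, plus strand): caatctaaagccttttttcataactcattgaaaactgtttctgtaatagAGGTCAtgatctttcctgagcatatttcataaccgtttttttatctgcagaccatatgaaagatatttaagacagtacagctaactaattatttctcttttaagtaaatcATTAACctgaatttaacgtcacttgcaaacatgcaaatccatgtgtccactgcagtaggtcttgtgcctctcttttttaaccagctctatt
Ugt2a3 (chr5:87337196-87337445, minus strand): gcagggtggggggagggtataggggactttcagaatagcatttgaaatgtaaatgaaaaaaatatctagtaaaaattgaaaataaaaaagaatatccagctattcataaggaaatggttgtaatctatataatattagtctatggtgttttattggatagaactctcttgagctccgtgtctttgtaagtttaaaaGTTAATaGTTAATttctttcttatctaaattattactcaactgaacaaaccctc
The GTTAAT match begins 41 bases before the start in Ugt1a1 and 91 bases before it in Ugt1a9, and Ugt2a3 holds a pair of matches that begin 54 and 47 bases before its start. Ugt1a9 also holds AGGTCA, 201 bases before its start. Thus both the Ugt1a gene that was lower and the one that was higher hold a GTTAAT match. A match is a description of letters and not evidence of binding.

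Most measured members were lower in the Chrna4-labelled livers. Of the 45 members, 38 had a mean of at least 1 CPM over the 6 libraries and were tested. By limma on log2(CPM + 1), with p-values adjusted over all 12099 genes tested and a threshold of 0.05, 22 of them fell, 1 rose (Ugt1a9) and 15 did not pass. Over all genes tested, 10.3% fell and 14.2% rose, so 24.5% passed in either direction. The median log2 fold change was -0.68 over the tested members and -0.0067 over all genes tested, and it was below 0 in 34 of the 38. A fall of at least 2-fold was seen in 10 members and in 1.14% of all genes tested. The groups did not overlap in 24 of the 38 members, against 43.0% of all genes tested. The other 7 members, Aox2, Ces1a, Ces2h, Sult2a7, Ugt1a10, Ugt1a2 and Ugt1a7c, stayed below the minimum level. In whole tissue, fewer cells of a type and less RNA per cell cannot be told apart.

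These falls are relative to the bulk of genes, because the deposited values rest on totals multiplied by 0.853 to 0.922 for vehicle and by 1.11 to 1.14 for Chrna4-labelled livers. If unscaled totals are used instead (plain totals below), the median of all genes moves up by 0.31 on the log2 scale. The median of the members was then -0.35, and 15 members fell and 1 rose, against 2.82% of all genes that fell and 37.3% that rose. The authors' deposited table, which holds their own test of the same libraries, lists 24 members as lower and 1 as higher at an adjusted p of 0.05, against 9.11% and 15.0% of all its genes.

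Summed over the 45 members, the level was 12595, 13099 and 12672 CPM in vehicle and 7593, 7803 and 8127 CPM in the Chrna4-labelled libraries. All 3 Chrna4-labelled sums lay below all 3 vehicle sums, with means of 12788 ± 272 and 7841 ± 269 CPM (SD, n = 3 per group). A 2-sided exact permutation test gave p = 0.1, the lowest value that 3 against 3 can reach. As a share of all recovered reads, a measure free of the scaling, the members took 1.14% ± 0.067 in vehicle and 0.880% ± 0.018 in the Chrna4-labelled libraries (SD, n = 3 per group; exact permutation p = 0.1).

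The sum was also taken for each family. For Sult genes it was 1614, 1546 and 1411 CPM in vehicle against 679.9, 707 and 785 CPM. Ces genes, which took more reads than any other of these families, summed to 7025, 6501 and 6431 against 3556, 3935 and 4257 CPM. The Ugt sum was 3126, 3643 and 3507 against 2344, 2135 and 2177 CPM. In all 3 families the groups lay apart, and the mean log2 difference was -1.07 for Sult, -0.77 for Ces and -0.62 for Ugt, each with an exact permutation p of 0.1. By share of all recovered reads the log2 differences were -0.74 and -0.43 for Sult and Ces (exact permutation p = 0.1 each) and -0.29 for Ugt (exact permutation p = 0.2), where vehicle replicate 1 and Chrna4-labelled replicate 1 both stood at 0.267%. Differences between the families were not tested. The Aox sum, at 830.0, 1408 and 1322 CPM in vehicle and 1013, 1026 and 908 CPM in the other group, overlapped.

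**Figure D1:**
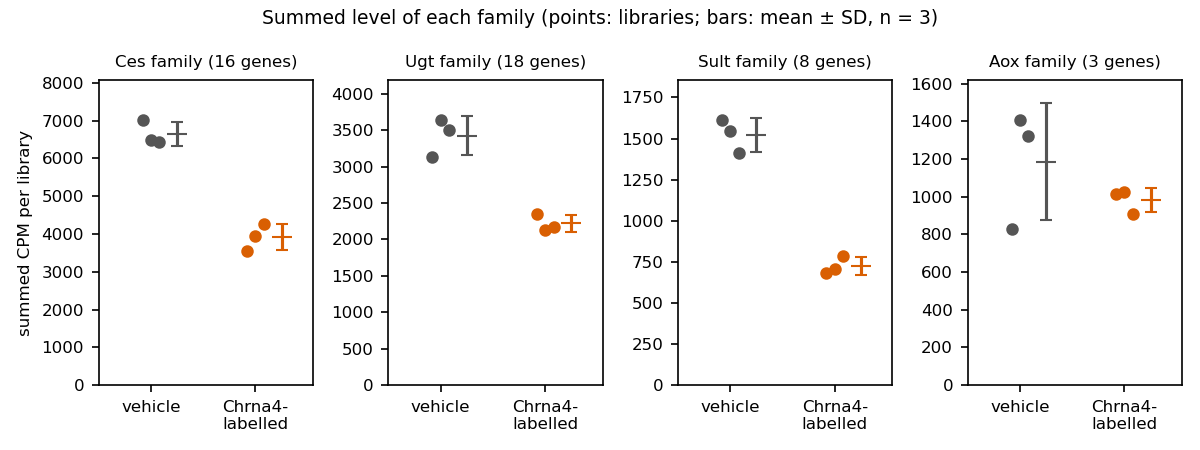
Summed CPM of each family (vertical axes, each from 0) in vehicle (grey) and Chrna4-labelled (orange) livers; points are libraries and bars are the mean ± SD, n = 3 per group. The groups lie apart for the Ces, Ugt and Sult families and overlap for Aox.

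Counted by family, 7 Ugt genes fell and 1 rose of 15 tested, 5 Sult genes fell of 7, and 10 Ces genes fell of 14. No Sult, Ces or Aox gene rose by limma, and none of them was higher at an unadjusted p of 0.05 or by edgeR or DESeq2. The medians of the log2 fold changes were -0.45 for Ugt, -0.78 for Sult and -0.78 for Ces. With plain totals the counts of falls were 5, 4 and 6, and the medians -0.11, -0.59 and -0.44, beside 0.30 for all genes.

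**Figure D2:**
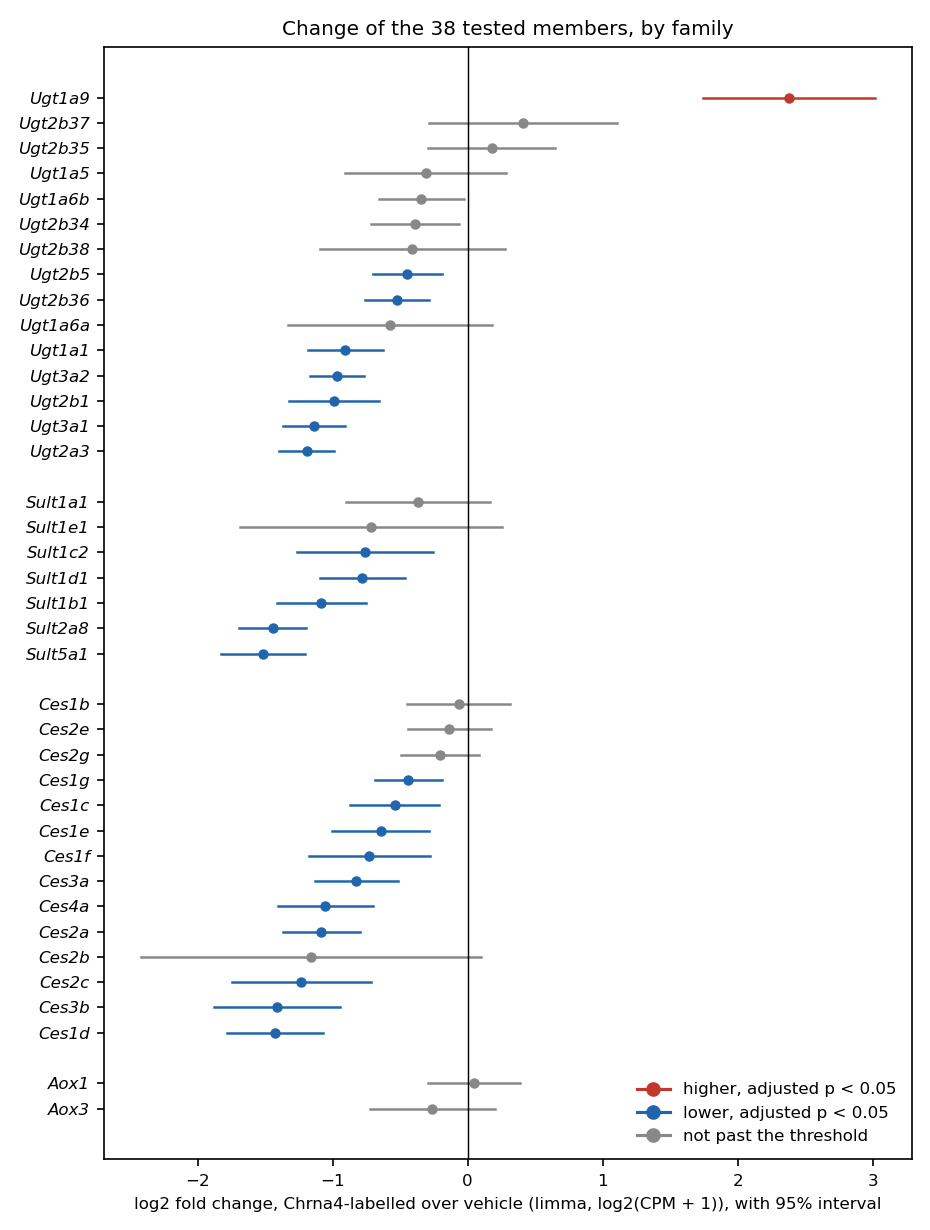
Log2 fold change with its 95% interval (horizontal axis; limma on log2(CPM + 1), n = 3 per group) of the 38 tested members, ordered within each family; blue marks falls, red the rise and grey members that did not pass an adjusted p of 0.05. Points lie left of 0 in 34 of 38, and Ugt1a9 stands alone on the right at 2.38.

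Among glucuronosyltransferases the Ugt1a genes form 1 locus on chromosome 1 (88055388 to 88220002, GRCm38), where alternative first exons are joined to the same last exons, so that each enzyme has its own substrate-binding part and a common donor-binding part. Ugt1a1, the enzyme that conjugates bilirubin (88211959 to 88218997, plus strand), had 70.6, 53.2 and 57.8 CPM in vehicle and 29.9, 32.6 and 32.4 CPM in the Chrna4-labelled libraries. The groups lay well apart, and the gene fell by 0.91 on the log2 scale (SE 0.12; limma, adjusted p = 0.00201). Ugt1a9, whose human counterpart conjugates phenols and drugs such as propofol (88070800 to 88218997, plus strand), had 4.17, 8.85 and 11.4 CPM in vehicle and 44.3, 45.9 and 41.2 CPM in the Chrna4-labelled libraries, from 54, 165 and 230 against 755, 867 and 777 reads. It was thus the only member that rose, from 8.15 ± 3.68 to 43.8 ± 2.40 CPM (SD, n = 3), a 5.38-fold difference of means (log2 fold change 2.38, SE 0.28, 95% interval 1.75 to 3.02; limma, adjusted p = 0.00121). Its fold change lay between 2.02 and 2.69 under the 14 other settings and it passed in each.

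The rise of Ugt1a9 and the fall of Ugt1a1 went with a changed makeup of the locus. Ugt1a9 took 2.83%, 7.27% and 8.71% of the Ugt1a reads in vehicle and 38.7%, 33.9% and 34.1% in the Chrna4-labelled livers. Ugt1a1 took 48.0%, 43.7% and 44.1% against 26.1%, 24.1% and 26.9%. Thus Ugt1a9 had more reads than Ugt1a1 in every Chrna4-labelled library and in no vehicle library. Their ratio was 0.059, 0.166 and 0.198 in vehicle and 1.48, 1.41 and 1.27 in the other group (exact permutation p = 0.1). Both genes already lay apart in opposite directions, so the ratio had to lie apart and adds no support beyond their calls. The sum of the 8 Ugt1a genes, at 147, 122 and 131 against 114, 135 and 121 CPM, overlapped between groups (exact permutation p = 0.4). As a share of all recovered reads the same sum was 0.0126%, 0.0112% and 0.0118% in vehicle and 0.0130%, 0.0152% and 0.0134% in the Chrna4-labelled libraries, higher without overlap (log2 difference 0.22, exact permutation p = 0.1), so its direction depends on the scaling.

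**Figure D3:**
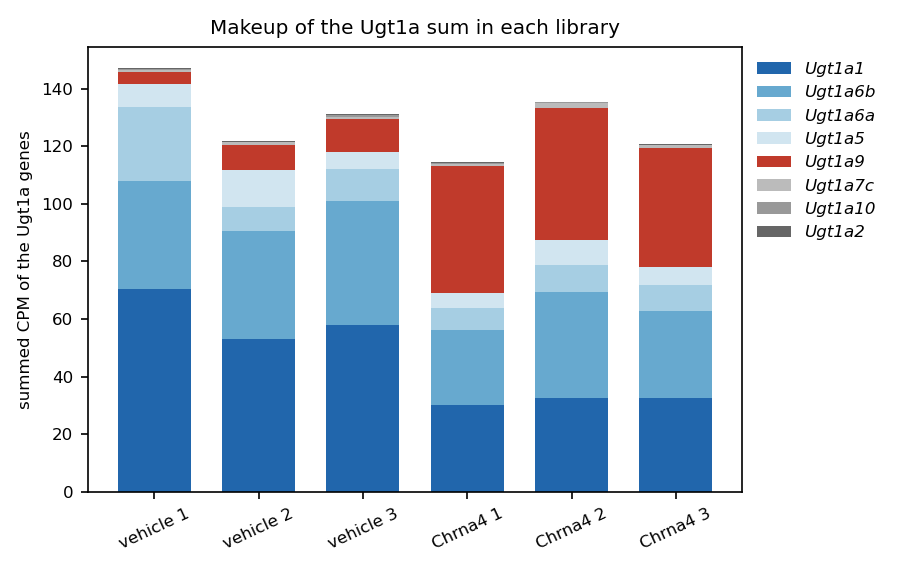
Stacked CPM of the 8 Ugt1a genes (vertical axis, from 0) in each of the 6 libraries. The bars have similar heights, between 114 and 147 CPM, and the red segment of Ugt1a9 takes 2.83% to 8.71% of the vehicle bars and 33.9% to 38.7% of the Chrna4-labelled bars.

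Values of single Ugt1a genes carry an uncertainty, because 50.3% to 60.6% of the exonic bases of each lie in other genes of the annotation, and 56.1% to 100% of its windows of 150 bases (100% for Ugt1a6a) occur in another gene. All 8 also overlap Gm20528 on the other strand, and no source used here tells how reads in shared exons were counted. The sum of the 8 may therefore not be the level of the whole locus. Ugt1a8, which shares these exons by the annotation, was not among the members. Ugt1a2 had 0 to 0.235 CPM in every library, so reads of the common exons were not added in full to every gene. The other tested Ugt1a genes did not pass. Ugt1a6b and Ugt1a6a, which conjugate flat phenols, had log2 fold changes of -0.34 and -0.58 (limma, adjusted p = 0.110 and 0.250), and Ugt1a5 had -0.31 (adjusted p = 0.436). Vehicle replicate 1 stood out for Ugt1a6a, at 25.6 CPM against 8.42 and 11.1 in the other vehicle libraries.

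The Ugt2 enzymes, which take steroids, bile acids and drugs, made up most of the glucuronosyltransferase reads. Ugt2a3 (chromosome 5, 87324972 to 87337195, minus strand), which in human conjugates bile acids, had 314, 331 and 323 CPM in vehicle and 139.6, 132 and 150.4 CPM in the Chrna4-labelled libraries. Each group was tight and the gap between them wide, with a log2 fold change of -1.19 (SE 0.09; limma, adjusted p = 0.00024). Ugt2b1 (86916638 to 86926530, minus strand), a microsomal enzyme for steroids and drugs, had 520.0, 697 and 741 against 326, 296 and 352 CPM, a log2 fold change of -0.99 (SE 0.15; limma, adjusted p = 0.00276). The lowest vehicle library still lay above every Chrna4-labelled one.

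Ugt2b36 and Ugt2b5, abundant liver enzymes of the same subfamily, fell by less. Ugt2b36 had 581, 586 and 524 CPM in vehicle and 431, 384 and 364 CPM in the Chrna4-labelled libraries (log2 fold change -0.52; limma, adjusted p = 0.00901). Ugt2b5 had 519.6, 619 and 493 against 419, 392 and 380.4 CPM (-0.45; adjusted p = 0.0213). Both sets of values lay apart, but the calls of Ugt2b36 and Ugt2b5 were lost in 3 and 5 of the 14 other settings. Ugt2b34, Ugt2b38, Ugt2b35 and Ugt2b37 did not pass, with log2 fold changes of -0.39, -0.41, 0.18 and 0.41 and limma adjusted p-values of 0.0816, 0.369, 0.576 and 0.377. Without vehicle replicate 1 both Ugt2b34 (-0.54) and Ugt2b38 (-0.76) passed as lower. The ratio of Ugt2b1 to Ugt2b35, a neighbour with interval -0.29 to 0.65 for its own change, was 4.83, 4.03 and 3.73 in vehicle and 1.66, 1.78 and 2.13 in the other group. Ugt2b5 and Ugt2b38 share sequence with other members (19.5% and 19.2% of their windows of 150 bases), so their split is less certain.

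The 60 bases before the RefSeq start of 4 Ugt2b neighbours are shown because these paralogs share much of their start region and include genes that fell and genes that did not pass; differences between the genes were not tested. All are on the minus strand of chromosome 5, and capitals mark AGGTCA.
Ugt2b36 (chr5:87092556-87092615): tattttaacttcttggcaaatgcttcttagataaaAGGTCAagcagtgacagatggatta
Ugt2b5 (chr5:87140341-87140400): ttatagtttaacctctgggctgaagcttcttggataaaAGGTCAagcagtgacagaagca
Ugt2b37 (chr5:87254789-87254848): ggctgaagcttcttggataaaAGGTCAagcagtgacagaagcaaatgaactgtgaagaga
Ugt2b38 (chr5:87424204-87424263): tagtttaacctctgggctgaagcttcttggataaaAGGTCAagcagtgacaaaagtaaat
All 4 share an unbroken run of 22 bases that holds the AGGTCA match. Ugt2b36 and Ugt2b5 fell. Ugt2b37 (9.26, 19.6 and 20.8 against 29.0, 19.8 and 16.2 CPM) and Ugt2b38 (19.6, 31.6 and 55.1 against 24.6, 23.6 and 24.4 CPM) overlapped between groups.

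Over all start regions, 38 members had 41 RefSeq windows of 250 bases. Some RefSeq starts lie well inside the gene by GENCODE, by 8218 bases for a Sult2a8 window, 2941 for Ugt3a1 and 1973 for a Sult1b1 window. Matches in these windows are included in the counts. GTTAAT lay in 9 of the 41 (21.95%; 6 of 16 among Ugt genes) and in 6.43% of all 32851 windows, and AGGTCA in 13 (31.7%) and 14.0%. GCGTG, the core of the Ah receptor site, lay in 5 of the 41 (12.2%) against 28.2% of all. TGACNNNGC, the core of the antioxidant response element, was found in 0 of the 41 and in 10.2% of all. Both strands were searched, and neighbouring paralogs share sequence, so the windows are not independent. They were not matched to all windows for base composition, and sites outside the 250 bases were not searched.

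The Ugt3a enzymes use other sugars than glucuronic acid: in human, Ugt3a1 takes N-acetylglucosamine and Ugt3a2 glucose and xylose. Ugt3a2 (chromosome 15, 9335550 to 9370955, plus strand) had 447, 433 and 464 CPM in vehicle and 242, 221 and 223 CPM in the Chrna4-labelled libraries (log2 fold change -0.97, SE 0.09; limma, adjusted p = 0.000443). Ugt3a1 had 86.6, 93.5 and 76.8 against 39.5, 37.5 and 37.7 CPM (-1.14, SE 0.10; adjusted p = 0.000421). Both members of the subfamily thus fell, with groups far apart, and their sum was 534 ± 7.18 CPM in vehicle and 267 ± 12.6 CPM in the other group (SD, n = 3).

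Among sulfotransferases the most abundant member fell. Sult2a8, which in mouse sulfates bile acids (chromosome 7, 14410686 to 14446769, minus strand), had 949, 963 and 875 CPM in vehicle and 336, 309 and 379 CPM in the Chrna4-labelled libraries. The log2 fold change was -1.45 (SE 0.11; limma, adjusted p = 0.000246). The gene took 61.0% ± 1.94 of all Sult reads in vehicle and 47.2% ± 3.07 in the other group (SD, n = 3; exact permutation p = 0.1). Its neighbour Sult2a7, at 2.55, 1.23 and 0.844 against 0.235, 0.318 and 0.530 CPM, had a mean below 1 CPM and was left out of the test; without that filter it passed as lower, and the authors' deposited table gives it a log2 fold change of -2.03 with an adjusted p of 0.00121.

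The Sult1 enzymes take phenols, hormones and catecholamines. Sult1d1, which in mouse sulfates catecholamines (chromosome 5, 87554645 to 87569027, minus strand), had 193, 184 and 259.7 CPM in vehicle and 131, 118 and 117 CPM in the Chrna4-labelled libraries (log2 fold change -0.78, SE 0.14; limma, adjusted p = 0.00555). Sult1b1, a thyroid hormone sulfotransferase, had 42.4, 34.6 and 33.6 against 20.01, 15.9 and 14.8 CPM (-1.08, SE 0.14; adjusted p = 0.00199). The low Sult1c2 had 4.78, 4.45 and 2.93 against 2.58, 2.06 and 1.32 CPM (-0.76; adjusted p = 0.0380), and its call was lost in 5 of the 13 settings that tested it. In all 3 the groups lay apart.

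Sult1a1, the main phenol sulfotransferase and the most abundant Sult1 gene, did not pass. It had 385, 319 and 202 CPM in vehicle and 179.8, 247 and 259 CPM in the Chrna4-labelled libraries, so that the third vehicle library lay among the Chrna4-labelled ones (log2 fold change -0.37, 95% interval -0.90 to 0.17; limma, adjusted p = 0.301). Without that library it passed as lower (-0.63, adjusted p = 0.0367). Sult1e1, the estrogen sulfotransferase, had at most 3.77 CPM (-0.71; adjusted p = 0.267). Sult5a1 (chromosome 8, 123140192 to 123158315, minus strand) had 37.0, 38.9 and 34.2 against 10.3, 14.4 and 12.2 CPM, with no overlap. Its log2 fold change of -1.51 (SE 0.14; limma, adjusted p = 0.000432) was the lowest of the 38 tested members on the log2(CPM + 1) scale, which shrinks the changes of low genes.

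**Figure D4:**
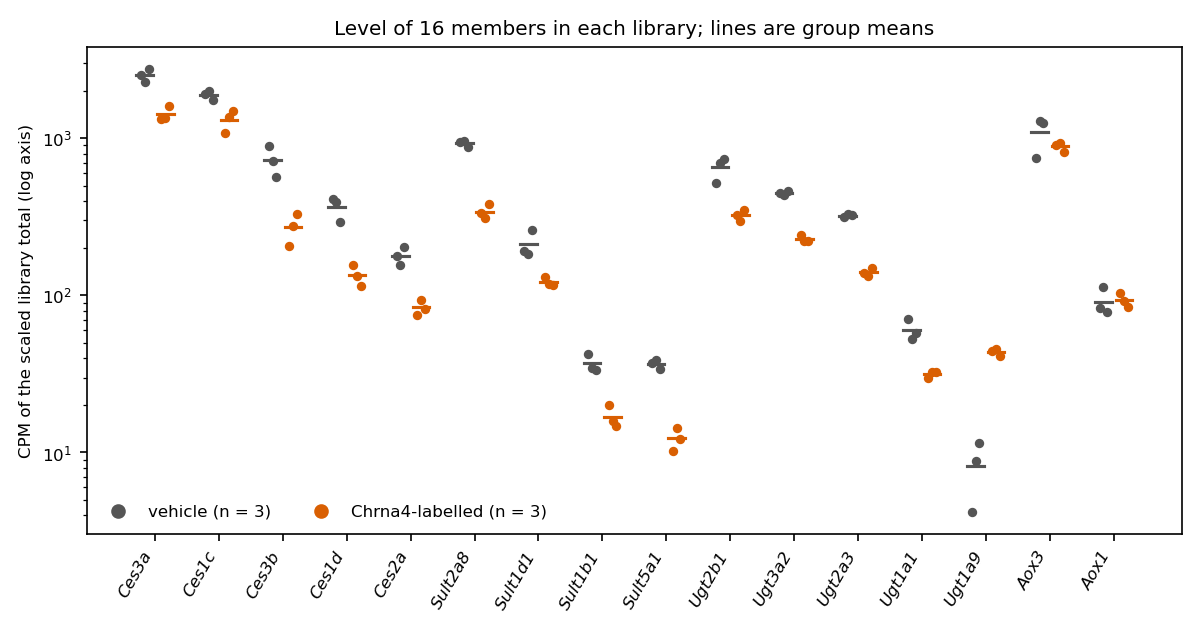
CPM on a log axis of 16 members in each library, vehicle in grey and Chrna4-labelled in orange; points are libraries and lines are group means (n = 3 per group). Orange lies below grey without overlap for the 13 genes shown from Ces3a to Ugt1a1, above it for Ugt1a9, and among the grey points for Aox3 and Aox1.

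Carboxylesterases took more reads than the other families. Per kilobase of the longest coding transcript, the vehicle level of Ces3a was 1234.5 and that of Ces1c 1037.5 CPM per kb, ahead of Sult2a8 at 433.5 and Ces3b at 302 CPM per kb, and in the Chrna4-labelled libraries Ces1c (719) and Ces3a (697 CPM per kb) were nearly equal. Ces1c, the esterase that rodents secrete into plasma (chromosome 8, 93099015 to 93131283, minus strand), had 1917, 2013 and 1760.3 CPM in vehicle and 1085, 1366 and 1491 CPM in the Chrna4-labelled libraries. The groups lay apart, but the highest Chrna4-labelled value came near the lowest vehicle one (log2 fold change -0.54, SE 0.14; limma, adjusted p = 0.0275), and the call was lost in 5 of the 14 other settings.

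Ces1d, a triacylglycerol hydrolase of hepatocytes and adipocytes (93166068 to 93197838, minus strand), had 409, 393 and 294 CPM in vehicle and 156, 133 and 115 CPM in the Chrna4-labelled libraries (log2 fold change -1.43, SE 0.16; limma, adjusted p = 0.000954). It showed the deepest fall of the Ces1 genes and kept its call in every setting. Ces1f, another lipid hydrolase, had 387, 345 and 224 against 211, 191 and 162 CPM (-0.73; adjusted p = 0.0289). Ces1g, which also acts on liver lipids, had 146, 123 and 133 against 91.0, 110.2 and 95.3 CPM (-0.44; adjusted p = 0.0202). Both lay apart by a small gap, and their calls were lost in 6 and 4 of the 14 other settings.

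Ces1e, also known as egasyn, which holds beta-glucuronidase in the endoplasmic reticulum, fell by 0.64 on the log2 scale (limma, adjusted p = 0.0196; lost in 5 settings). Ces1b did not pass, with 79.1, 60.2 and 60.8 CPM in vehicle and 49.7, 70.5 and 71.7 CPM in the other group (-0.07, 95% interval -0.45 to 0.31; limma, adjusted p = 0.812). The direction of Ces1b turned to 0.26 with plain totals. Set against this neighbour, Ces1d was at a ratio of 5.17, 6.52 and 4.84 in vehicle and 3.14, 1.89 and 1.60 in the other group, without overlap.

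In the second chromosome 8 cluster (104734003 to 105150109), Ces3a, an esterase of the hepatocyte endoplasmic reticulum (105048601 to 105058413, plus strand), had 2539, 2283 and 2755 CPM in vehicle and 1318, 1352 and 1607 CPM in the Chrna4-labelled libraries (log2 fold change -0.83, SE 0.13; limma, adjusted p = 0.00407). Its call was lost with quantile normalization only (-0.26, adjusted p = 0.122). Its neighbour Ces3b had 888, 718 and 567 against 206, 278 and 332 CPM (-1.41, SE 0.21; adjusted p = 0.00269). Both lay apart between groups. Ces3a overlaps Gm45724 on the other strand, as Sult1a1 does Sgf29, and no source used here gives the strand setting, so reads of such partners cannot be told apart. Ces4a, at 7.95, 9.44 and 7.30 against 3.70, 2.91 and 3.71 CPM, fell as well (-1.05, SE 0.15; adjusted p = 0.00278).

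The Ces2 genes split. Ces2a, which acts on diacylglycerol and triacylglycerol (104734003 to 104741634, plus strand), had 178, 157 and 204 CPM in vehicle and 75.3, 93.8 and 82.3 CPM in the Chrna4-labelled libraries (log2 fold change -1.09, SE 0.13; limma, adjusted p = 0.00116). Ces2c, known as an acylcarnitine hydrolase, had 47.8, 48.3 and 80.9 against 19.2, 30.0 and 23.3 CPM (-1.23, SE 0.23; adjusted p = 0.00646). Both fell without overlap and kept their calls in all settings. Ces2e, the Ces2 gene with the most reads, had 248, 201 and 200.4 against 229, 195 and 169 CPM and overlapped (-0.14, 95% interval -0.44 to 0.17; adjusted p = 0.518). The ratio of Ces2a to Ces2e was 0.716, 0.778 and 1.02 in vehicle and 0.329, 0.482 and 0.486 in the other group, which do not overlap. Ces2g (-0.20, adjusted p = 0.289) and the low and scattered Ces2b (0.636 to 12.1 CPM; -1.16, adjusted p = 0.166) did not pass, and Ces2e and Ces2g turned to 0.20 and 0.13 with plain totals. Without vehicle replicate 1, Ces2b passed as lower, and the authors' deposited table lists it as lower (-2.04, adjusted p = 0.00917). In all, 10 such ratios between members were computed. Several of the pairs set a member that fell against a neighbour that did not pass, in the same libraries. A gap in such a ratio therefore adds no support beyond the calls of the single genes. Those of Ces3b to Ces3a, Aox3 to Aox1 and Sult1b1 to Sult1a1 overlapped between groups (exact permutation p = 0.2, 0.3 and 0.3), the other 7 did not overlap, and 3 against 3 cannot bring any of them below an exact permutation p of 0.1.

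Each of 4 clusters, those of Ugt1a, of Ugt2 with Sult1, of Ces1 and of Ces2 to Ces4, held members that fell and members that did not pass. In the chromosome 5 cluster of Ugt2 and Sult1 genes (86889767 to 87591594), 6 of 11 fell and 5 did not pass. The Ces1 cluster (93020214 to 93337308) had 5 falls among 7 genes, with Ces1b not past the threshold and Ces1a not tested; with plain totals 1 of the 5, Ces1d, still fell. In the Ces2 to Ces4 cluster 5 of 9 fell, and Ces2b, Ces2e and Ces2g, which lie between Ces2a and Ces3a together with Ces2c and the untested Ces2h, did not pass.

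**Figure D5:**
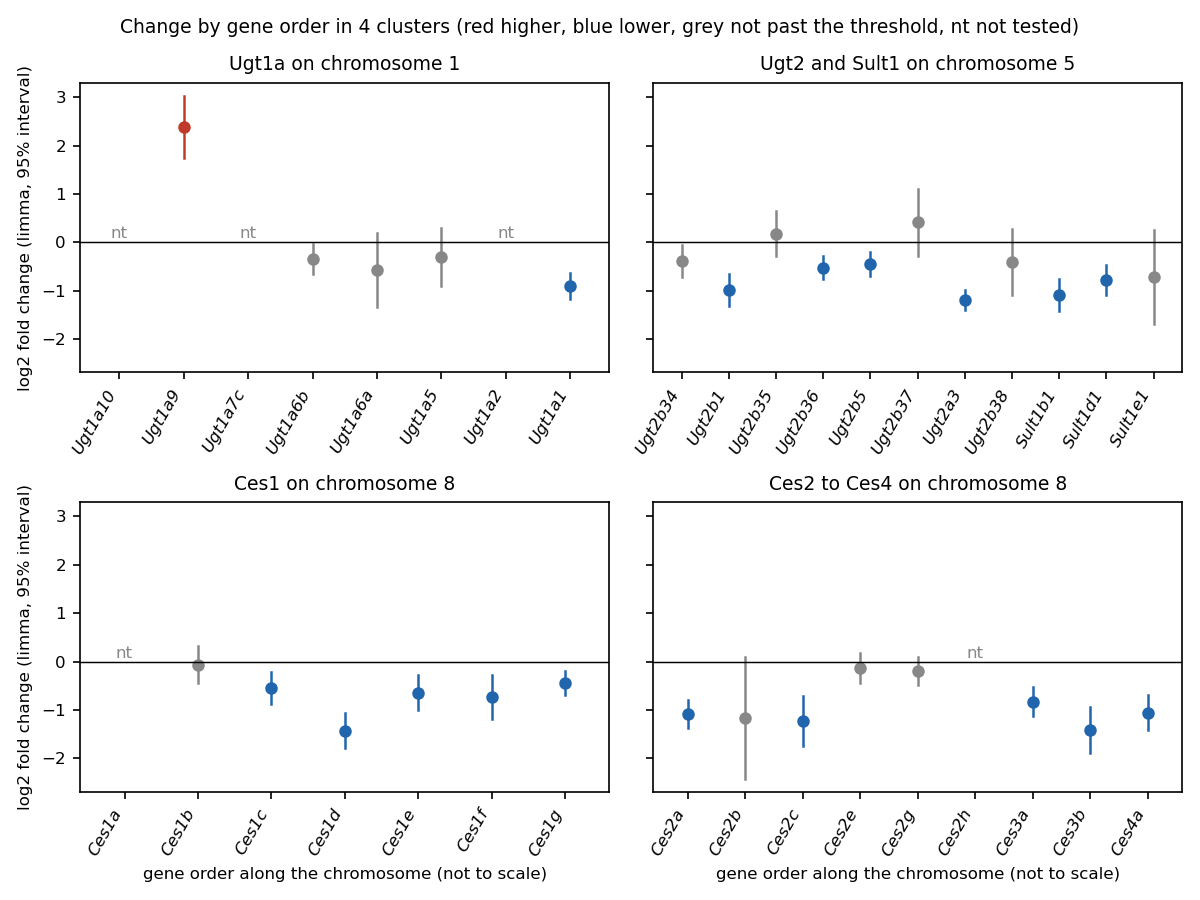
Log2 fold change with its 95% interval (vertical axis; limma, n = 3 per group) of the genes of 4 clusters in their order along the chromosome, not to scale; blue marks falls, red the rise, grey genes that did not pass and nt genes that were not tested. Each cluster holds both falls and genes that did not pass, and Ugt1a9 at 2.38 and Ugt1a1 at -0.91 share the Ugt1a locus.

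The aldehyde oxidases did not pass. Aox3, the main aldehyde oxidase of mouse liver, had 747, 1296 and 1244 CPM in vehicle and 909, 934 and 824 CPM in the Chrna4-labelled libraries. Vehicle replicate 1 lay below all Chrna4-labelled values and the other vehicle libraries lay above them (log2 fold change -0.26, 95% interval -0.72 to 0.20; limma, adjusted p = 0.396). Without vehicle replicate 1, Aox3 passed as lower (-0.52, adjusted p = 0.00600). Aox1, its broadly expressed neighbour, had 82.6, 112 and 78.3 against 103, 92.1 and 84.3 CPM (0.05, 95% interval -0.29 to 0.38; adjusted p = 0.852). Neither passed at an unadjusted p of 0.05 or by edgeR or DESeq2.

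Genes that feed these enzymes are read against the 10.3% of all genes that fell and the 14.2% that rose. Their counts with plain totals are read against 2.82% and 37.3%. Of 7 genes that supply UDP-glucuronic acid or handle glucuronides, 1 rose and 2 fell (median -0.06; 3 rose and 2 fell with plain totals). Ugdh, which oxidizes UDP-glucose to UDP-glucuronic acid, rose from 102 ± 9.29 to 151 ± 3.64 CPM (log2 fold change 0.57; limma, adjusted p = 0.00457). Ugp2, which makes UDP-glucose, fell from 381 ± 49.9 to 226 ± 10.5 CPM (-0.75; adjusted p = 0.00299), and so did Gulo, which leads from glucuronate to vitamin C in mouse (-0.97; adjusted p = 0.00362). Of 11 tested genes that supply PAPS or handle sulfate, 4 fell (median -0.24), and 0 rose by limma, at an unadjusted p of 0.05, by edgeR or by DESeq2; with plain totals 2 fell and 1 rose. The PAPS synthase gene Papss2 fell from 172 ± 11.8 to 125 ± 7.08 CPM (-0.46; adjusted p = 0.01003), a call lost with plain totals, and Papss1 did not pass (0.12; adjusted p = 0.635). Cdo1 and Suox, which lead from cysteine to sulfate, fell by 0.72 each.

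Of 22 tested transcription factors of drug metabolism, 2 fell by limma and 4 by DESeq2 (median -0.18), a limma share close to the 10.3% of all genes. None rose by limma, at an unadjusted p of 0.05, by edgeR or by DESeq2. With plain totals 1 fell and 5 rose, where 2.82% of all genes fell and 37.3% rose. Nr1i3, the constitutive androstane receptor CAR and a known activator of Ugt1a1 and several Sult and Ces genes, had 94.9, 47.2 and 45.4 CPM in vehicle and 13.2, 19.8 and 18.2 CPM in the Chrna4-labelled libraries (log2 fold change -1.75; limma, adjusted p = 0.00363). Whether the fall of Nr1i3 bears on the levels of the members was not tested. Foxa1 fell by 0.74 (limma, adjusted p = 0.0260), and its call was lost with plain totals. Those that did not pass included Nr1i2 (PXR, -0.25), Ahr (-0.34), Ppara (-0.20), Nfe2l2 (NRF2, 0.26) and Hnf4a (-0.20), with limma adjusted p-values between 0.181 and 0.378.

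Markers of several other cell types and of pericentral hepatocytes moved with the groups. Counts by limma are read against the 10.3% of all genes that fell and the 14.2% that rose. With plain totals these shares were 2.82% and 37.3%. The tissue label was borne out by the hepatocyte genes, with Alb at 43415 to 54386 CPM in all libraries. Of 14 tested hepatocyte markers 4 fell and 1 rose, with a median of -0.34 (-0.007 with plain totals) and summed levels of 105968 to 115837 CPM in vehicle and 92215 to 100878 CPM in the Chrna4-labelled libraries. Markers of stellate cells and matrix rose in 8 of 12 and summed to 202 to 226 CPM in vehicle against 613 to 669 CPM. Macrophage markers rose in 12 of 17 and fell in 2, with sums of 309.6 to 799.9 against 1036 to 1126 CPM. Markers of T, NK, B and plasma cells rose in 9 of 14 (13 at an unadjusted p of 0.05), from sums of 13.1 to 32.8 to sums of 79.9 to 87.5 CPM. Genes of pericentral hepatocytes, which surround the central vein, fell in 14 of 17 (median -1.23; 13 with plain totals), and those of periportal hepatocytes rose in 3 and fell in 3 of 16 (median -0.31; 3 rose and 0 fell with plain totals by limma). Male-biased liver genes fell in 9 of 12 (median -0.90; 6 with plain totals), and 2 of 7 tested female-biased genes rose. The part of these shifts in the lower levels of the Ugt, Sult and Ces genes was not tested.

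Markers of intestine, kidney and adipose tissue, which also express members of these families, summed to 75.8 to 146.6 CPM in vehicle and 86.8 to 106.8 CPM in the Chrna4-labelled libraries; 4 of 10 were in the table and neither of the 2 tested passed, also at an unadjusted p of 0.05, by edgeR or by DESeq2. The median difference of a library from the other 2 of its group over the members lay between -0.11 and 0.08 on the log2 scale. Single members ranged widely, from -1.62 to 1.32 in vehicle replicate 1 and from -0.80 to 2.06 in vehicle replicate 3. With vehicle replicate 1 left out, in which Aox3 and Ugt1a6a stood out, 25 members fell and 1 rose, against 11.7% and 15.8% of all genes. This was the highest count: leaving out each library in turn gave 16 to 25 falls, beside 4.1% to 11.7% of all genes.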

How the data were processed

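Poly(A)+ liver RNA of 6 libraries was read as pairs of 150 bases, per the labels. The submitters' processing notes name TopHat2, HTSeq, mm10 and GRCm38; the annotation, the strand setting and the handling of reads shared by genes are not stated there or in the labels. The deposited table has 1 signal per gene and library, beside the log2 fold change, log2 mean level, p-value and adjusted p-value from the authors' comparison of the groups. Divided by the value of 1 read in its column, 100% of the deposited signal values lay within 0.01 of a whole number, so the signal is reads per 1000000 reads of a total that the authors scaled with a factor equal to edgeR's TMM.

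As the main test, limma 3.58.1 in R 4.3.3 (lmFit, then eBayes with trend) was run on log2(value + 1) for the 12099 genes whose mean over all libraries reached 1, Benjamini-Hochberg adjusted over all of them; 2393 genes were not tested. Fold changes on this scale understate those of low genes. Sums, shares and ratios were compared with 2-sided exact permutation tests (scipy 1.17.1). Alternatives were other pseudocounts (0.5 and 0.1), no filter or a mean of at least 5, plain library totals, quantile normalization, edgeR 4.0.16 (quasi-likelihood) and DESeq2 1.42.0 on the recovered reads, and leaving out each library. On the recovered reads edgeR called 2886 genes and DESeq2 3175, against 2962 by limma. The fit across genes was tested on simulated data.

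Values in every library are given for members that passed with a mean at or above the median of tested members, for the most abundant member of each subfamily, and for others as counts and ranges needed; of the 19 other gene lists, up to 3 genes of lowest p per direction, and genes that did not pass were named for their role. The members and lists were chosen with earlier results of these data known. Of 72 annotated genes that match the rule, 65 are protein coding, and 20 of these were not analysed here. Coordinates are from GENCODE M21, in which 14480 of the 14492 gene numbers were found, and start regions from RefSeq (GRCm38.p6). No pair of libraries agreed within counting noise, so none was treated as a repeat of another; this does not show that they are separate animals.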

Additional observations from a re-analysis of the deposited data

How the results depend on the processing

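Of the 23 members that passed, 15 kept their call under all 14 other settings, 8 lost it under at least 1 and 0 turned in direction, and 5 members that had not passed did so under at least 1. The count of Ces genes that fell was 10 and became 6 with plain library totals, 6 with quantile normalization and 6 to 11 when 1 library was left out (11 without vehicle replicate 1, 7 without vehicle replicate 2, 6, 7 and 7 without Chrna4-labelled replicate 1, 2 and 3). Left out in the same way, the counts of falls were 5 to 9 for Ugt and 4 to 6 for Sult genes, beside 4.10% to 11.7% of all genes, and the summed levels differed by -0.69 to -0.58, -1.13 to -1.03 and -0.83 to -0.70 on the log2 scale for Ugt, Sult and Ces. Aox1, at 0.05, ranged from -0.0513 to 0.207 when 1 library was left out (-0.014 without vehicle replicate 1 and -0.0288 without Chrna4-labelled replicate 1). Aox3, at -0.26, was 0.074 with plain totals and 0.21 with quantile normalization, and -0.52 to -0.12 when 1 library was left out. Among members that did not pass, Ces1b turned to 0.26 with plain totals, 0.0086 with quantile normalization, and -0.16 to 0.10 when 1 library was left out (0.061 without vehicle replicate 1 and 0.10 without Chrna4-labelled replicate 1). Ces2e turned to 0.20 and 0.12 with plain totals and quantile normalization, Ces2g to 0.13 with plain totals, and Ugt2b35 to -0.080 without vehicle replicate 1 (range -0.080 to 0.36 when 1 library was left out). The cause of these shifts was not tested. No paired analysis was possible because liver numbers differ between all 6 libraries and the groups share none. The minimum mean of 1 left out 7 members; without it the count of Sult falls was 6.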

Other observations

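All counts in this section stand beside the 10.3% of all genes that fell and the 14.2% that rose by limma. With plain totals the shares of all genes were 2.82% and 37.3%. Of 16 tested enzymes that conjugate by other routes, 11 fell and 0 rose by limma (median log2 fold change -0.53). Of these 16, 1 was higher at an unadjusted p of 0.05 and by DESeq2 and 0 by edgeR. With plain totals 4 of them fell and 1 rose. Inmt, an amine methyltransferase, had 438, 579 and 436 CPM in vehicle and 260.1, 237 and 199 CPM in the Chrna4-labelled livers (-1.06, adjusted p = 0.00225). Acsm3, which activates medium-chain acids, fell by 0.63 and Baat, which joins bile acids to amino acids, by 0.54. Of 17 tested other esterases and lipid hydrolases, 7 fell and 0 rose by limma (median -0.19), 1 was higher at an unadjusted p of 0.05 and 0 by edgeR or DESeq2, and 3 fell and 4 rose with plain totals. Pon1, the paraoxonase that the liver secretes on lipoproteins, had 682, 677 and 594 against 270.5, 272 and 316 CPM (-1.18, adjusted p = 0.000435). The hepatic lipase gene Lipc fell by 0.72 and the arylacetamide deacetylase gene Aadac by 0.67.

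The molybdenum cofactor that aldehyde oxidases need is made by the Mocs enzymes, and of 9 genes of that pathway and of other molybdenum enzymes 5 fell (median -0.44), 0 rose by limma, at an unadjusted p of 0.05, by edgeR or by DESeq2, and 1 fell and 3 rose with plain totals. Mocs1 and Mocs2 fell by 0.57 and 0.52, calls that were lost with plain totals. Mocos, which activates the cofactor for aldehyde oxidases, did not pass (0.08, adjusted p = 0.659), nor did Xdh, the related xanthine dehydrogenase (0.05, adjusted p = 0.794). Among 14 transporters of glucuronides, sulfates and organic anions, 7 fell and 1 rose (median -0.46). Slc22a7, an uptake transporter of organic anions, had 144, 97.5 and 102 CPM in vehicle and 21.8, 22.4 and 25.5 CPM in the Chrna4-labelled livers (-2.23, adjusted p = 0.00024). The efflux transporter genes Abcc2 and Abcc3 did not pass (-0.34 and 0.09; limma, adjusted p = 0.129 and 0.772). Of 8 tested genes listed with electron transfer to microsomal enzymes, 1 rose and 2 fell. The rise was that of Hmox1 (1.04), the heme oxygenase, which receives electrons and does not pass them on. Cyb5a and Por fell by 0.997 and 0.44, the call of Por being lost with plain totals. Of 10 endothelial markers 1 rose and 3 fell (3 rose and 1 fell with plain totals), and of 3 tested bile duct markers 1 rose.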
